A study of Homo sapiens with 4 samples.

Results

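Collagens are the proteins of the extracellular matrix that fold as triple helices, and their genes carry a COL symbol followed by a type number and a chain number. They were studied here in PANC-1, an established human cell line from a pancreatic ductal carcinoma, after knockdown of SIRT1, an NAD-dependent protein deacetylase. Every gene whose symbol in the 4 tables has that form was taken, which gave 39 collagen genes of 16878 genes measured. They fall into 11 fibrillar, 9 basement membrane, 3 beaded and 16 other collagens. COL6A5, COL6A6, COL9A1, COL19A1 and COL25A1 were not analysed here.

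RNA-seq libraries had been made from 2 samples labelled Control and 2 labelled siSIRT1, with the RNA taken 48 h after transfection. All 4 libraries come from the same cell line, which carries no other stated alteration, and the siSIRT1 cells differ by a small interfering RNA (siRNA) against SIRT1. The labels say neither what the Control cells received nor whether the 2 libraries of a group came from separate cultures, so the p-values measure the spread between these libraries, which may be technical. The question put to these libraries is which RNAs change in level when PANC-1 cells lose SIRT1.

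Fibrillar collagens (types I, III, V and XI among them) assemble into the banded fibers of connective tissue, with the type V and XI chains controlling fibril formation. Type IV collagen forms the sheet of the basement membrane under epithelia, type VII anchors that sheet to the stroma, and type XVIII is a proteoglycan of the same membrane whose end fragment is known as endostatin. Type VI forms beaded filaments in the space between cells. In pancreatic ductal carcinoma the dense collagen stroma is known to be made mostly by fibroblasts and stellate cells, and the carcinoma cells make a smaller set of chains.

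The siRNA listed by the study for SIRT1 and the spacer of a collagen gene pair are shown here, because the first defines the treatment and the second lies between 2 genes that both rose. In the antisense strand the capitals mark the seed (bases 2 to 8), and the spacer is printed on the plus strand with a CCAAT box and a GC box (GGGCGG) in capitals.

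siSIRT1 sense: gugucaugguuccuuugca

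siSIRT1 antisense: uGCAAAGGaaccaugacac

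COL4A1-COL4A2 spacer: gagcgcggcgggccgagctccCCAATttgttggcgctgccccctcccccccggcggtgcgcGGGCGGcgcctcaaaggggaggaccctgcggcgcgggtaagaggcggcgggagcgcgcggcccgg

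The siRNA matched the coding sequence of SIRT1 once, across the junction of exons 5 and 6 of 9 (chr10:69666687-69666694 and chr10:69667803-69667813, plus strand, GRCh37). The spacer is the 126 bases between the 2 first transcribed bases in the RefSeq promoter table (chr13:110307158-110307283, GRCh38.p14), and 80.2% of its bases were G or C. SIRT1 itself was at 10.46 and 10.25 FPKM (fragments normalised for transcript length and for the size of the library) in Control. In siSIRT1 it was at 1.80 and 2.05 FPKM, which is 18.6% of the Control mean (log2 fold change -1.96, SE 0.11, adjusted p = 1.33e-05, limma). The target was thus lower in both siSIRT1 libraries, as their labels say.

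The steps of 1 read in the low values gave depths of about 8940000 and 9120000 reads in Control and 8700000 and 9010000 in siSIRT1. The log2 values of the 2 Control libraries differed with an SD of 0.164 over genes and those of the 2 siSIRT1 libraries with an SD of 0.205. Such a difference cannot show which library of a pair deviates. Among all 12191 genes whose mean reached 1 FPKM, 37.1% passed the test (adjusted p under 0.05, limma with Benjamini-Hochberg adjustment over all genes tested). Of these genes 24% were higher in siSIRT1 and 13.1% were lower, so a single call is common in these data. With median-of-ratios scaling the calls split into 2020 higher and 2054 lower, against 2930 and 1591 without it. Quantile normalization gave 2280 higher and 1998 lower, and equal FPKM sums gave 2299 and 1844. Each log2 fold change is a difference of mean log2(FPKM + 1), so that the added 1 FPKM shrinks the values of genes near the filter.

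PANC-1 cells transcribed a broad set of collagens. Of the 39 genes, 28 were above 0 in all 4 libraries and 20 had a mean of at least 1 FPKM and could be tested. In siSIRT1, 13 of the 20 rose and 2 fell, while 5 did not pass the test. The share that passed, 75%, stands beside 37.1% of all genes tested, and the median log2 fold change was 0.51 for the 20 collagens and 0.07 for all genes tested. All 20 had groups that did not overlap, 17 of them higher in siSIRT1, and the same held for 69% of all genes tested, with 43.8% higher. Of the 20 tested collagens, COL12A1, COL8A2 and COL13A1 reached 1 FPKM as a group mean in only 1 of the 2 groups. Among the 17 collagens whose means reached 1 FPKM in both groups, 12 rose and 1 fell, which is 76.5% beside 36.7% of all such genes. The 15 calls became fewer without Control 1, as did the calls over all genes tested, and no tested collagen changed sign. In bulk RNA, fewer cells that express a gene and less RNA per cell cannot be told apart.

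**Figure D1:**
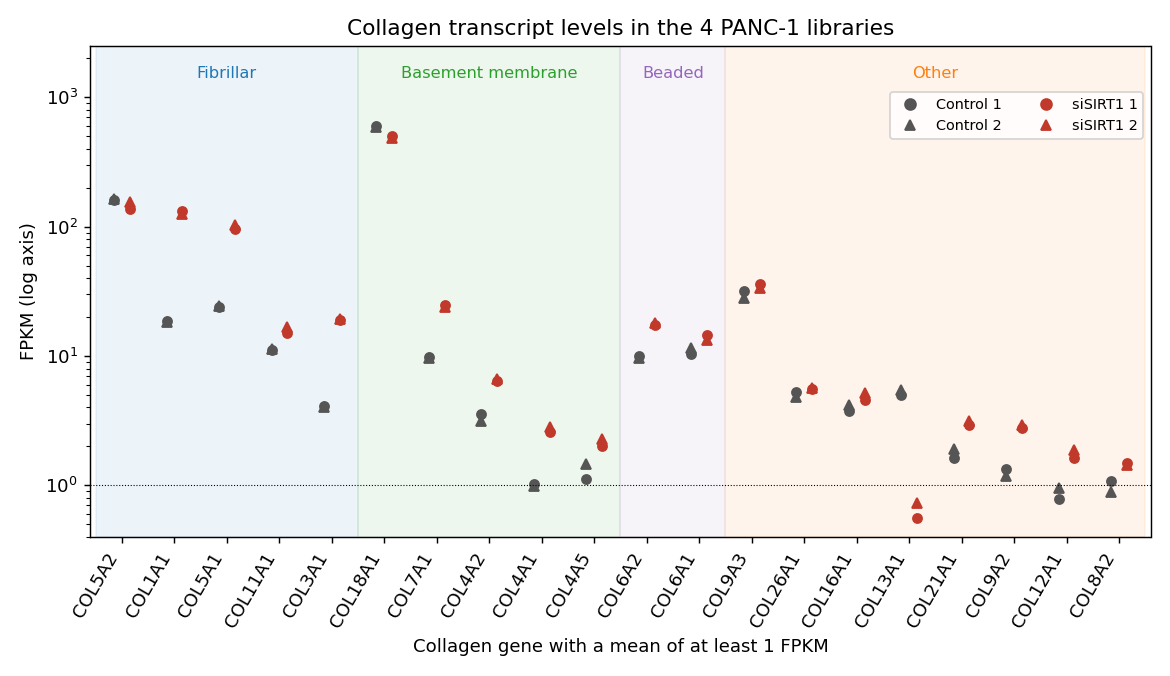
FPKM of the 20 collagens with a mean of at least 1 FPKM (log axis), by class, with grey symbols for the 2 Control and red symbols for the 2 siSIRT1 libraries. COL18A1 and COL5A2 were the highest in every library, and COL1A1, COL5A1 and COL3A1 show the widest gaps upward and COL13A1 the widest gap downward.

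Fibrillar collagens held the largest rises. COL1A1, the alpha 1 chain of type I collagen (chr17:48261462-48278992, minus strand, GRCh37), was at 18.78 and 18.17 FPKM in Control, compared with 131.34 and 126.34 FPKM in siSIRT1. Both siSIRT1 libraries lay far above both Control libraries (ratio of means 6.97, log2 fold change 2.74, SE 0.062, adjusted p = 1.08e-07). It was the gene with the 5th largest log2 rise of the 12191 tested, and about 967 to 979 reads in Control and 6641 to 6666 in siSIRT1 stood behind it.

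COL5A1, the alpha 1 chain of type V collagen (chr9:137533649-137736689, plus strand, GRCh37), was at 23.84 and 24.50 FPKM in Control, compared with 96.18 and 102.56 FPKM in siSIRT1. Its rise was 4.11-fold (log2 fold change 1.99, SE 0.064, adjusted p = 5.6e-07), the 14th largest of all genes tested. COL3A1, the chain that makes type III collagen of reticular fibers (chr2:189839099-189877472, plus strand, GRCh37), was at 4.08 and 4.04 FPKM in Control, compared with 18.86 and 19.35 FPKM in siSIRT1. That is a rise of 4.71-fold (log2 fold change 1.99, SE 0.092, adjusted p = 3.93e-06), the 15th largest of all genes tested.

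The 2 other tested fibrillar chains moved little. COL11A1, the alpha 1 chain of type XI collagen, was at 11.21 and 11.34 FPKM in Control, compared with 15.04 and 16.66 FPKM in siSIRT1, a rise of 1.41-fold (log2 fold change 0.46, SE 0.087, adjusted p = 0.00417). COL5A2, the alpha 2 chain of type V, was the most abundant fibrillar collagen, at 159.73 and 162.38 FPKM in Control, compared with 137.99 and 156.12 FPKM in siSIRT1. The siSIRT1 libraries were both below Control, but the difference did not pass the test (log2 fold change -0.13, SE 0.070, adjusted p = 0.17). It passed with median-of-ratios scaling (log2 fold change -0.22, adjusted p = 0.0464) and without siSIRT1 2 (log2 fold change -0.22, adjusted p = 0.0156).

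COL3A1 and COL5A2 are neighbours on chromosome 2 with their 3′ ends 19151 bases apart (GRCh37), and only COL3A1 passed the test. Over the class, 4 of the 5 tested fibrillar collagens rose and none fell, with a median log2 fold change of 1.99. That is 80% passed, beside 37.1% of all genes tested. COL5A2 at an unadjusted p of 0.0912 was the one that did not pass.

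COL1A2, which encodes the alpha 2 chain that pairs with alpha 1 chains in ordinary type I collagen, was nearly silent in every library. It was listed at 0.02 and 0 FPKM in Control, compared with 0.04 and 0.06 FPKM in siSIRT1, which is at most 3 reads per library, the floor of counting used here. The large rise of COL1A1 therefore had no measurable counterpart in COL1A2 at this depth. COL2A1, the cartilage collagen, and COL5A3 stayed at or under 0.17 FPKM. COL24A1 was at 0.11 and 0.07 FPKM in Control, compared with 0.31 and 0.23 FPKM in siSIRT1. COL27A1 was at 0.91 and 1.30 against 0.78 and 0.95 FPKM, and COL11A2 at 0.77 and 0.77 against 0.95 and 0.69 FPKM, so that their groups overlapped.

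**Figure D2:**
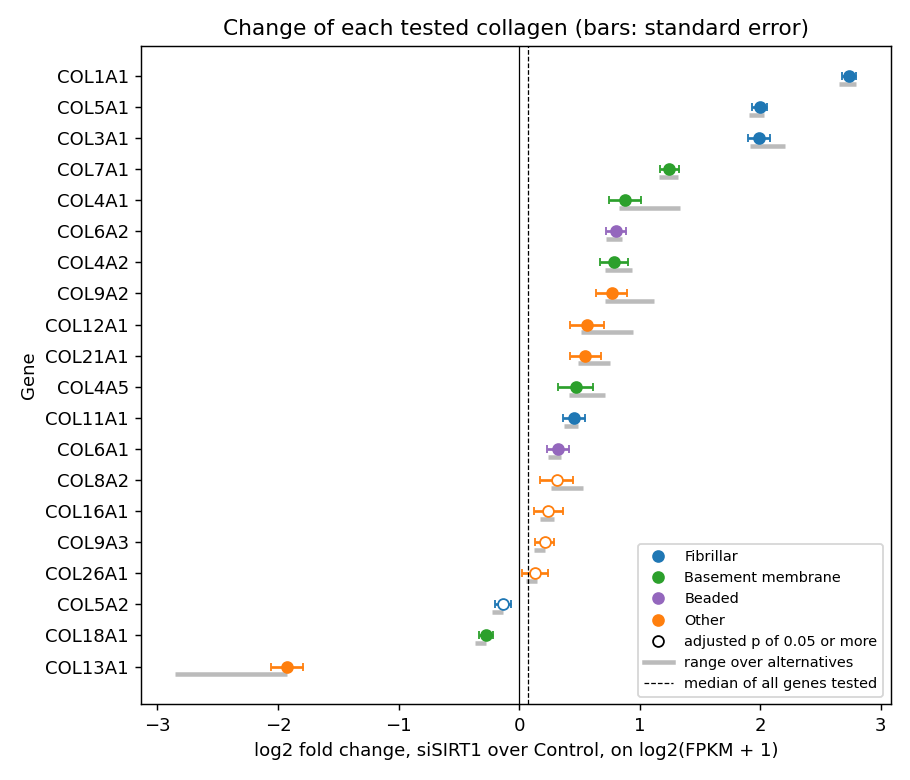
Log2 fold change of each tested collagen in siSIRT1 against Control with its standard error, filled where the adjusted p was under 0.05 and coloured by class, and as a grey bar the range over the alternatives with all 4 libraries. COL1A1 is at 2.74, COL13A1 at -1.93, and no grey bar crosses 0; the dashed line is the median of all genes tested, 0.07.

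Of the 5 basement membrane collagens that could be tested, 4 rose and the most abundant one fell. All 5 thus passed, beside 37.1% of all genes tested. COL7A1, which forms the anchoring fibrils, was at 9.75 and 9.62 FPKM in Control, compared with 24.94 and 23.73 FPKM in siSIRT1. It rose 2.51-fold in libraries that agreed closely within each group (log2 fold change 1.25, SE 0.079, adjusted p = 1.9e-05).

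The main chains of type IV collagen, COL4A1 and COL4A2, are read in opposite directions from the spacer shown above. COL4A1 (chr13:110801310-110959504, minus strand, GRCh37) was at 1.02 and 0.99 FPKM in Control, compared with 2.57 and 2.82 FPKM in siSIRT1 (log2 fold change 0.88, SE 0.13, adjusted p = 0.00123). COL4A2 (chr13:110959631-111165556, plus strand, GRCh37) was at 3.57 and 3.12 FPKM in Control, compared with 6.38 and 6.60 FPKM in siSIRT1 (log2 fold change 0.79, SE 0.12, adjusted p = 0.00113). Both transcripts thus rose, by ratios of means of 2.68 and 1.94.

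COL4A5, the alpha 5 chain and a gene altered in Alport syndrome, was at 1.11 and 1.45 FPKM in Control, compared with 2.01 and 2.29 FPKM in siSIRT1. The groups did not overlap (log2 fold change 0.47, SE 0.14, adjusted p = 0.0323). This call was not stable and was lost without any one of the 4 libraries (adjusted p from 0.0531 without siSIRT1 1 to 0.217 without Control 1) and under 3 other alternatives. Its divergent neighbour COL4A6 was at 0 and 0.04 FPKM in Control, compared with 0.38 and 0.27 FPKM in siSIRT1, with 0 and 2 reads against 22 and 16 reads. COL4A6 was below the filter of the main test, and when every gene was tested it was called (log2 fold change 0.38, adjusted p = 0.0238).

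COL18A1, the source of endostatin (chr21:46825080-46933634, plus strand, GRCh37), was the highest collagen in all 4 libraries. It was at 603.73 and 595.34 FPKM in Control, compared with 503.38 and 487.47 FPKM in siSIRT1, where it fell to 82.6% of the Control mean (log2 fold change -0.27, SE 0.061, adjusted p = 0.00843). The call was lost without Control 1 (adjusted p = 0.191) and without Control 2 (adjusted p = 0.161). In the annotation 28.9% of its transcript overlaps exons of SLC19A1 on the opposite strand, and whether counting used strand is not given in the sources used here. SLC19A1 was at 14.84 and 14.97 FPKM in Control, compared with 14.41 and 15.39 FPKM in siSIRT1, far below COL18A1.

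The median log2 fold change of the 5 was 0.79. COL15A1, the close relative of COL18A1, and the kidney chains COL4A3 and COL4A4 stayed at or under 0.17 FPKM in every library.

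Both measurable beaded collagens rose, beside 24% of all genes tested that were higher. COL6A2 was at 9.95 and 9.58 FPKM in Control, compared with 17.41 and 18.12 FPKM in siSIRT1 (log2 fold change 0.80, SE 0.083, adjusted p = 0.000209). COL6A1, its neighbour on chromosome 21 in the same direction, was at 10.31 and 11.47 FPKM in Control, compared with 14.42 and 13.35 FPKM in siSIRT1 (log2 fold change 0.32, SE 0.093, adjusted p = 0.0246). The smaller of these rises was not stable: the COL6A1 call was lost under 4 alternatives with all libraries, with adjusted p up to 0.0773, and without Control 1 (0.202), Control 2 (0.0529) or siSIRT1 1 (0.085). COL6A3, the chain that completes the usual type VI molecule, was at 0.31 and 0.28 FPKM in Control, compared with 0.23 and 0.23 FPKM in siSIRT1, below the filter.

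**Figure D3:**
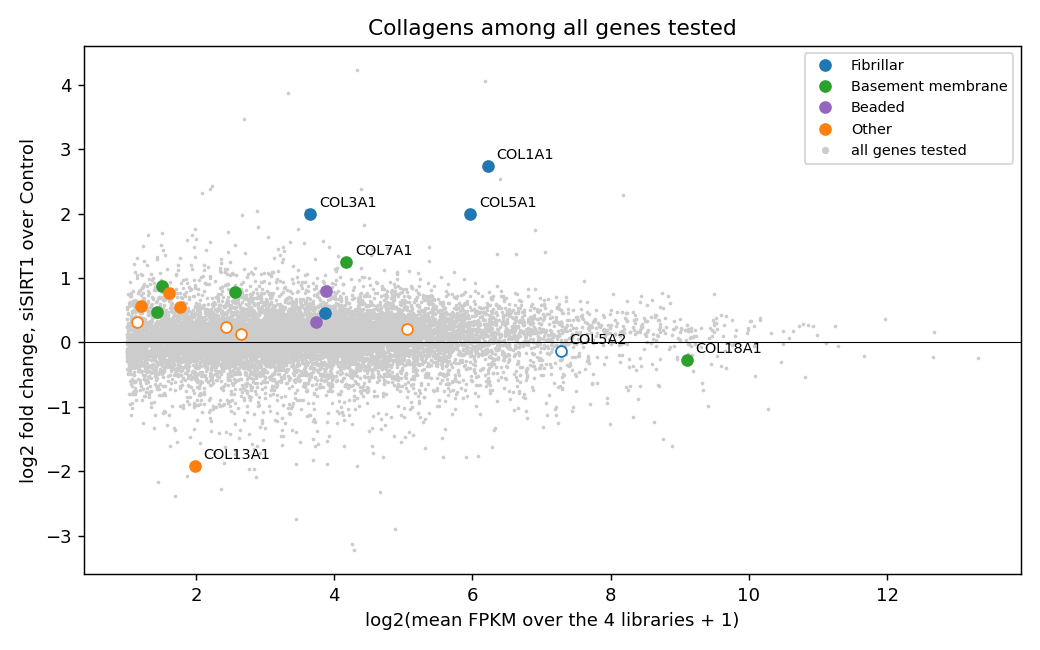
Log2 fold change against log2(mean FPKM + 1) for all 12191 genes tested (grey) and the 20 tested collagens (coloured by class, open where the adjusted p was 0.05 or more). COL1A1, COL5A1 and COL3A1 sit at the upper edge of the cloud at 2.74, 1.99 and 1.99, and COL13A1 near its lower edge at -1.93.

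The other collagens were mixed. COL13A1, a transmembrane collagen of cell adhesion sites (chr10:71561662-71718900, plus strand, GRCh37), was at 5.0 and 5.49 FPKM in Control, compared with 0.56 and 0.73 FPKM in siSIRT1. It fell to 12.3% of the Control mean (log2 fold change -1.93, SE 0.13, adjusted p = 2.83e-05), which was the 13th largest log2 fall of all genes tested. The reads behind it were 137 and 154 in Control and 15 and 20 in siSIRT1. With a pseudocount of 0.1, which compresses low values less, its log2 fold change was -2.85. The other transmembrane collagens went unmeasured, with COL17A1 at 0.04 and 0.12 FPKM in Control, compared with 0.26 and 0.31 FPKM in siSIRT1, and COL23A1 at or under 0.08 FPKM.

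Among the FACITs, the collagens that sit on the surface of fibrils, 3 of 5 tested members rose. That is 60%, beside 24% of all genes tested that were higher. COL12A1, counted among the 3, reached a mean of 1 FPKM in siSIRT1 only. COL9A2, a chain of type IX collagen, was at 1.33 and 1.19 FPKM in Control, compared with 2.78 and 2.91 FPKM in siSIRT1 (log2 fold change 0.77, SE 0.13, adjusted p = 0.00226). COL21A1 was at 1.62 and 1.91 FPKM in Control, compared with 2.95 and 3.13 FPKM in siSIRT1 (log2 fold change 0.55, SE 0.13, adjusted p = 0.0111). COL12A1 was at 0.78 and 0.95 FPKM in Control, compared with 1.62 and 1.89 FPKM in siSIRT1 (log2 fold change 0.56, SE 0.14, adjusted p = 0.0144). All 3 were weakly expressed, and the COL21A1 call was lost without Control 1 (adjusted p = 0.0887) and that of COL12A1 without Control 1 (0.0958) or siSIRT1 2 (0.0543).

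COL9A3, another chain of type IX collagen, was much more abundant, at 31.79 and 27.93 FPKM in Control, compared with 35.77 and 33.57 FPKM in siSIRT1, and did not pass (log2 fold change 0.21, SE 0.080, adjusted p = 0.0696). With the replicate number as a block it passed (adjusted p = 0.0167). In the annotation 6.21% of its transcript overlaps exons of TCFL5 on the opposite strand, which was at 7.98 to 9.28 FPKM.

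COL16A1 was at 3.74 and 4.18 FPKM in Control, compared with 4.55 and 5.19 FPKM in siSIRT1 (log2 fold change 0.24, SE 0.12, adjusted p = 0.153). COL26A1 was at 5.27 and 4.79 FPKM in Control, compared with 5.58 and 5.61 FPKM in siSIRT1 (log2 fold change 0.13, SE 0.11, adjusted p = 0.391). COL8A2, a short-chain collagen of Descemet's membrane in the cornea, was at 1.08 and 0.89 FPKM in Control, compared with 1.48 and 1.44 FPKM in siSIRT1 (log2 fold change 0.31, SE 0.14, adjusted p = 0.113). None of these differences passed, although COL8A2 did in the fit without the mean-variance trend (adjusted p = 0.0401). Of the 8 tested genes of this class 3 rose, 1 fell and 4 did not pass, with a median log2 fold change of 0.28. Thus 50% passed, beside 37.1% of all genes tested. These calls include COL12A1, with a mean of at least 1 FPKM in siSIRT1 only, and COL13A1, with such a mean in Control only.

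Among the 19 collagens below the filter, 13 stayed under 0.3 FPKM in every library, with at most 15 reads. At this depth no change could be shown for them, and 11 collagens were listed at 0 in at least 1 library.

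The makeup of the collagen transcripts changed more than their sum. Summed over the 39 genes, collagens were at 910 and 902 FPKM in Control, compared with 1029 and 1033 FPKM in siSIRT1, or 0.226% and 0.227% against 0.241% and 0.253% of all FPKM. Without COL18A1 the sums were 307 and 307 FPKM in Control, compared with 526 and 546 FPKM in siSIRT1. In both groups the summed level was dominated by a few genes.

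Fibrillar collagens took 24.1% and 24.7% of the collagen sum in Control and 39.0% and 41.0% in siSIRT1, while basement membrane collagens took 68.0% and 67.7% against 52.4% and 50.7%. COL1A1 alone was 2.06% and 2.01% of the sum in Control and 12.8% and 12.2% in siSIRT1. It replaced COL9A3 as the third most abundant collagen, after COL18A1 and COL5A2.

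**Figure D4:**
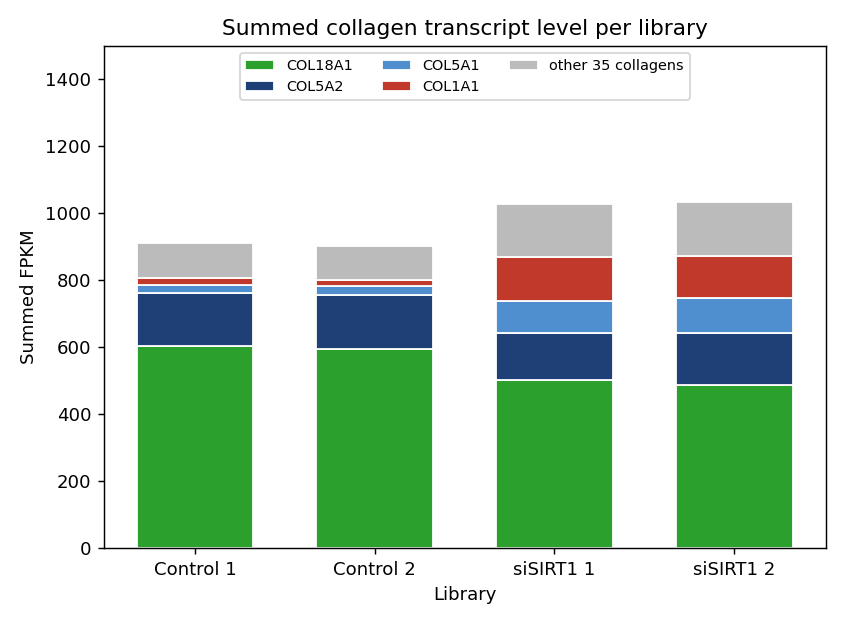
Summed FPKM of the 39 collagens in each library, with COL18A1, COL5A2, COL5A1 and COL1A1 shown as their own segments and the other 35 in grey. The bars reach 910 and 902 in Control and 1029 and 1033 in siSIRT1, with larger COL1A1 and COL5A1 segments and a smaller COL18A1 segment in siSIRT1.

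Transcripts of chains that assemble into the same collagen type changed by unequal amounts, and protein was not measured in these libraries. The level of COL5A1 was 0.149 and 0.151 of that of COL5A2 in Control and 0.697 and 0.657 in siSIRT1. The COL5A1 transcript thus came much closer in level to that of COL5A2. COL4A1 was at 0.286 and 0.317 of COL4A2 in Control and at 0.403 and 0.427 in siSIRT1. COL9A2 was at 0.0418 and 0.0426 of COL9A3 in Control and at 0.0777 and 0.0867 in siSIRT1. The ratio moved the other way for type VI, where COL6A1 was at 1.04 and 1.2 of COL6A2 in Control and at 0.828 and 0.737 in siSIRT1. In each of these 4 pairs the ratios of the groups did not overlap; they were not tested.

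Promoters of 15 of the 20 tested collagens were matched in the RefSeq table (GRCh38.p14), and COL1A1 and COL3A1 were not among them. The 250 bases before the start were searched on both strands for 3 promoter motifs, wherever in that window they lay. CCAAT was in 4 of the 15 (COL11A1, COL4A1, COL4A2 and COL4A5) and in 35.3% of 9942 promoters of tested genes. COL4A1 and COL4A2 share the spacer shown above, so its CCAAT and its GC box lie in both windows. GGGCGG was in 12 of the 15 and in 68.4% of all, and TATAAA in 3 of the 15 (COL13A1, COL6A2 and COL7A1) and in 5.08% of all. The windows of the fibrillar COL5A1, with 2 GC boxes (CCGCCC, the complement of GGGCGG) in capitals, and of COL13A1, with a TATAAA in capitals, are shown as those of a strongly risen and of the most strongly fallen collagen. They lie at chr9:134641553-134641802 and chr10:69801656-69801905, both on the plus strand.

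COL5A1 promoter: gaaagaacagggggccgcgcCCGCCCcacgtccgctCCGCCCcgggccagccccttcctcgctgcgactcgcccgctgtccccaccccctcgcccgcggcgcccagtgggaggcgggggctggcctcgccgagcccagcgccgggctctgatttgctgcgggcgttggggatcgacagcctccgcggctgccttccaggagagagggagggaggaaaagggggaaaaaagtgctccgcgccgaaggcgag

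COL13A1 promoter: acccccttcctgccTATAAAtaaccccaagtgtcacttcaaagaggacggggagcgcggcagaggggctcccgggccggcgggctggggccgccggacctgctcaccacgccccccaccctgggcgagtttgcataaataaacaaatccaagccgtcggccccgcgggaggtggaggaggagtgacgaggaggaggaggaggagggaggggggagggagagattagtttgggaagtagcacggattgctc

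The heptamer CCTTTGC, to which the siRNA seed can pair, was in the 3′ UTR of 4 of the 20 tested collagens (COL1A1, COL5A2, COL12A1 and COL26A1) and of 15.6% of the 11932 tested genes with a 3′ UTR. Of these 4 collagens, COL1A1 and COL12A1 rose and the other two did not pass the test.

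Genes that fold, export, cut, link, bind or break down collagen were mixed in direction. Of 66 genes on these lists, 45 were tested, 15 rose and 10 fell, which is 55.6% beside 37.1% of all genes tested, with a median log2 fold change of 0.11. Fewer of them passed without Control 1 or without Control 2, and so did fewer of all genes tested.

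In the list for folding and modification, 9 of 19 tested genes rose and 4 fell, which is 68.4% beside 37.1% of all genes tested. Chains of the prolyl 4-hydroxylase that stabilises the triple helix rose, with P4HA1 at 27.30 and 27.38 FPKM in Control, compared with 42.97 and 44.39 FPKM in siSIRT1 (log2 fold change 0.66, adjusted p = 0.000153) and P4HA2 at 17.82 and 17.39 against 32.74 and 31.65 FPKM (0.84, adjusted p = 7.23e-05). The prolyl 3-hydroxylase P3H2 rose from 30.95 and 33.50 to 48.98 and 52.41 FPKM (log2 fold change 0.64, adjusted p = 0.000287). SERPINH1, the collagen chaperone HSP47, rose from 86.77 and 85.44 to 111.59 and 107.67 FPKM (log2 fold change 0.34, adjusted p = 0.00201). PLOD2, a lysyl hydroxylase that prepares cross-links, went the other way, from 62.02 and 63.79 to 39.15 and 46.54 FPKM (log2 fold change -0.55, adjusted p = 0.00137). The other members that fell, FKBP10, PLOD1 and P3H3, had log2 fold changes of -0.51, -0.40 and -0.26, and the call of P3H3 (adjusted p = 0.0494) was lost without any one library and under 3 alternatives with all of them (up to 0.0645).

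Of 8 tested genes for export from the endoplasmic reticulum, 2 coat proteins of transport vesicles rose and no other gene passed, which is 25% beside 37.1% of all genes tested and 24% higher among them. SEC13 was at 45.85 and 48.29 FPKM in Control, compared with 61.86 and 56.89 FPKM in siSIRT1 (log2 fold change 0.33, adjusted p = 0.00578). SEC24D was at 5.39 and 5.76 against 7.11 and 7.68 FPKM (log2 fold change 0.35, adjusted p = 0.03). The SEC24D call was lost under 3 alternatives with all libraries (adjusted p up to 0.0858) and without Control 1 (0.187), Control 2 (0.0979) or siSIRT1 2 (0.0805), and that of SEC13 without Control 1 (0.0673). None of the 3 tested genes for cutting the propeptides passed in limma with the trend, and 1 of them, PCOLCE2, had an unadjusted p under 0.05 there (log2 fold change 0.32, adjusted p = 0.0749) and passed without the trend (adjusted p = 0.0391). BMP1, the C-propeptide protease, was at 4.04 and 4.56 FPKM in Control, compared with 5.19 and 4.49 FPKM in siSIRT1 (log2 fold change 0.14, adjusted p = 0.413), with overlapping groups.

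Cross-linking lysyl oxidases split. LOXL4 rose from 1.89 and 2.15 to 5.45 and 4.07 FPKM (log2 fold change 0.92, adjusted p = 0.00176). LOXL1 fell from 6.71 and 4.87 to 3.22 and 3.33 FPKM (log2 fold change -0.65, adjusted p = 0.00857), a call lost without the filter on low values (0.0589) and without Control 1 (0.0825). LOX itself was at 0.24 to 0.47 FPKM in all 4 libraries, below the filter.

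Of the 8 genes for fibril binding partners 2 were tested. SPARC, a matrix glycoprotein that binds collagen, fell from 17.10 and 18.94 to 1.58 and 2.12 FPKM (log2 fold change -2.74, adjusted p = 3.93e-06), while THBS1, thrombospondin 1, rose from 4.60 and 4.37 to 9.16 and 12.51 FPKM (log2 fold change 1.1, adjusted p = 0.000595). On log2(FPKM + 1) the fall of SPARC was as large as the rise of COL1A1. With a pseudocount of 0.1, which compresses low values less, it was larger (log2 fold change -3.23, against 2.80 for COL1A1).

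Of 5 tested receptors none rose and 2 fell, and the share that passed, 40%, was close to the 37.1% of all genes tested. ITGA2, the alpha chain of a collagen-binding integrin, fell from 21.51 and 21.08 to 6.21 and 8.15 FPKM (log2 fold change -1.46, adjusted p = 6.44e-05). Its partner ITGB1 fell from 448.53 and 459.48 to 353.65 and 407.78 FPKM (log2 fold change -0.26, adjusted p = 0.0299), a call lost without the filter (0.107), without the trend (0.0934) and without either Control library (0.172 without Control 1 and 0.239 without Control 2). DDR1, a receptor tyrosine kinase for collagen, was at 79.85 and 77.53 FPKM in Control, compared with 88.04 and 84.78 FPKM in siSIRT1 and did not pass (log2 fold change 0.13, unadjusted p = 0.0497, adjusted p = 0.106, limma).

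All 4 tested genes for breakdown and uptake passed, 2 in each direction. Among all genes tested 37.1% passed, 24% higher and 13.1% lower. MRC2, the endocytic collagen receptor, fell from 72.25 and 71.91 to 47.56 and 43.56 FPKM (log2 fold change -0.65, adjusted p = 0.000179). MMP2, a gelatinase, fell from 81.47 and 80.88 to 74.47 and 65.63 FPKM (log2 fold change -0.21, adjusted p = 0.0453), a call lost under 3 alternatives with all libraries (up to 0.13) and without Control 1 (0.209), Control 2 (0.193) or siSIRT1 2 (0.108). CTSK, the collagen-cutting protease cathepsin K, rose from 1.23 and 1.41 to 2.61 and 2.34 FPKM (log2 fold change 0.58, adjusted p = 0.00958), a call lost without Control 1 (0.0672). MMP14, a membrane-bound collagenase, was at 4.77 and 4.17 FPKM in Control, compared with 5.48 and 7.11 FPKM in siSIRT1 (log2 fold change 0.41, adjusted p = 0.0464), and this call was lost under 6 of the 8 alternatives with all libraries (adjusted p up to 0.135), without Control 1 (0.0682), Control 2 (0.222) or siSIRT1 2 (0.184).

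Markers of the cell line and of cells that make stroma were read beside these values. The 5 ductal epithelial markers were all above 1 FPKM, with KRT8 at 2164.01 to 2745.12 FPKM, and summed to 4194 and 3972 FPKM in Control, compared with 5067 and 4674 FPKM in siSIRT1. Of 8 fibroblast and stellate cell markers, 7 were in the tables and only THY1 had a mean of at least 1 FPKM, at 4.09 and 2.81 FPKM in Control, compared with 8.71 and 8.07 FPKM in siSIRT1 (log2 fold change 1.09, adjusted p = 0.000782). The list summed to 4.93 and 3.57 FPKM in Control, compared with 9.36 and 8.53 FPKM in siSIRT1. FAP was at 0 in every library, LUM, DCN and POSTN did not exceed 0.10 FPKM, PDGFRB was at 0.04 to 0.12 FPKM, ACTA2 was at 0.34 to 0.72 FPKM, and PDGFRA was not analysed here. Within this list THY1 was thus higher in siSIRT1 with the collagens, and the other 6 members measured stayed under 1 FPKM in every library.

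None of 4 endothelial markers had a mean of 1 FPKM, with sums of 0.89 to 1.2 FPKM, and the 3 acinar markers in the tables summed to at most 0.15 FPKM. Of 4 endocrine markers only CHGA was in the tables, at 0 in every library. The 3 immune markers in the tables each reached 1 FPKM as a mean of the 4 libraries. They were led by CD68, a lysosomal protein of macrophages and other cells, and summed to 69.3 and 67.5 FPKM in Control, compared with 47.8 and 43.6 FPKM in siSIRT1. PTPRC, the pan-leukocyte marker, was at 0.97 to 1.29 FPKM. The part of these markers in the collagen differences was not tested.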

How the data were processed

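The authors deposited 1 table of FPKM per library, rounded to 2 decimals, for 16878 genes. The submitters' processing notes name Bowtie2, HISAT, RSEM and ChIPseeker without versions or roles, and the genome build is not given in the sources used here. FPKM is relative to a library's total, so that strong changes in abundant genes can move the values of all others. Values were tested as log2(FPKM + 1) with limma 3.58.1 in R 4.3.3 (lmFit and eBayes with trend), for 12191 genes whose mean over the libraries reached 1 FPKM, two-sided, with Benjamini-Hochberg adjustment over all of them and a threshold of 0.05. The fit used 2 Control and 2 siSIRT1 libraries without covariates and was tested on simulated data.

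The members and lists were chosen with earlier results of these data known. Every tested collagen is named, as is any collagen that reached 0.3 FPKM in a library. Of the lists, 8 genes fixed by name (SERPINH1, P4HA1, PLOD2, LOX, BMP1, SPARC, DDR1 and ITGB1) and up to 3 called members with the largest changes in each are named. Further genes were named after their values were seen. Symbols were checked by Entrez identifier (16846 matched). Depth came from the steps of 1 read in 508 genes with a single exon and transcript. Reads per gene are approximate, use canonical transcripts of GENCODE 44 on GRCh37, and with the floor of 3 reads cover counting error only. Alternatives were a pseudocount of 0.1, no filter, a filter of 0.3 FPKM, 3 other scalings, no trend, the replicate block and leaving out each library.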

Additional observations from a re-analysis of the deposited data

How the results depend on the processing

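With all 4 libraries, 13 of the 15 collagen calls held under each of the 8 alternatives, and 10 of these also without any one library (COL1A1, COL3A1, COL5A1, COL11A1, COL4A1, COL4A2, COL7A1, COL6A2, COL9A2 and COL13A1). No tested collagen changed sign. The cause of the lost calls was not tested. Leaving out 1 library gave 10 to 14 collagens changed, 9 to 11 higher and 1 to 3 lower, 13 to 22 collagen pathway genes changed, and a SIRT1 log2 fold change of -2.02 to -1.90. Over all genes tested, 2808 passed without Control 1 and 2710 without Control 2, against 4521 with all libraries. The titles give both groups the replicate numbers 1 and 2, and same-numbered libraries deviated together with a correlation of 0.123, over 2 pairs. With the replicate block 16 collagens changed, COL9A3 being added. The calls over all 12191 genes tested rose as well, from 4521 to 5393. Depth limits the 13 collagens under 0.3 FPKM.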
